A study of Mus musculus with 6 samples.

Results

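Krüppel-like factors (KLFs) are zinc finger transcription factors, and 10 genes of the family were taken by symbol from the deposited expression table: Klf2, Klf3, Klf4, Klf5, Klf6, Klf9, Klf10, Klf11, Klf13 and Klf15. They are 10 of the 24421 genes in the table, and 9 of them were among the 11671 genes with enough signal to be tested. KLF proteins bind GC-rich and CACCC-containing DNA, and they differ mainly in the part of the protein that recruits coactivators or corepressors. Many of the genes are induced quickly by growth factors, hormones or injury. In the kidney, family members have been studied in tubular cells, podocytes and endothelium, where they take part in injury responses, differentiation and metabolism.

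The cells were immortalized wild-type mouse proximal tubular epithelial cells (PTECs), a cultured line. The sources used here give neither how the line was made nor whether it is 1 clone. For 6 hours the PTECs received either bovine serum albumin alone (BSA) or albumin carrying palmitic acid, a saturated fatty acid (PA). Both groups therefore received albumin, and 3 libraries were made from each. No genotype or other agent separates the groups.

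The library sizes behind the values ran from 17679817 to 21568228 reads. Nothing in the labels says that the 3 libraries of a treatment are separate cultures. The p-values therefore describe the spread of these libraries alone, and that spread may be technical. Expression is given as RPKM, reads scaled to gene length and library size. Testing was limited to genes whose mean over all libraries reached 0.5 RPKM. The test was limma on log2(RPKM + 0.1), and the added 0.1 makes the fold changes of weakly expressed genes appear smaller. A gene was called where its p, adjusted over all genes tested by the Benjamini-Hochberg method, was under 0.05. As markers of the cells, the epithelial keratin gene Krt8 was at 489 ± 19.5 RPKM and the renal transcription factor gene Pax8 at 56.8 RPKM in BSA-treated PTECs (mean, SD, n = 3). The endocytic receptor gene Lrp2 was at 7.11 RPKM, whereas the transporter genes of the differentiated proximal tubule were near 0: Slc34a1, Slc5a2, Slc22a6 and Slc22a8 did not exceed 0.0250 RPKM in any library. A mean over 1 RPKM was reached by Flt1 alone among 9 endothelial markers, by Cd14, Csf1r and Cd68 among 10 immune markers and by Col1a2 alone among 10 fibroblast markers. The defining endothelial gene Pecam1 did not exceed 0.0450 RPKM and the leukocyte gene Ptprc 0.0793 RPKM, and Tie1, Emcn, Lyz2 and Ms4a1 were at 0.

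The sequences before the start sites of Klf4 and Klf9 are shown because these genes had the highest fold changes of the family. Both are the 250 bases before the RefSeq start site on GRCm38.p6, chr4:55532476-55532725 on the minus strand for Klf4 and chr19:23140976-23141225 on the plus strand for Klf9. Capitals mark matches on either strand to CACCC, the core bound by many KLFs, GGGCGG, the GC box of SP and KLF proteins, TGACG, the core site of CREB and ATF proteins, CACGTG, the E-box read by MiT/TFE and other basic helix-loop-helix proteins, and CCAAT.
Klf4: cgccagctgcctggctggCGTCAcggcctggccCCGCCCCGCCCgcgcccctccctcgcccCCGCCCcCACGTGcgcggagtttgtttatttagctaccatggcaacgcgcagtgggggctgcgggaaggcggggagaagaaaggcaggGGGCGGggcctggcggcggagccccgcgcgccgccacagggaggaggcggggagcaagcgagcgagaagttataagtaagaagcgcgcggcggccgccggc
Klf9: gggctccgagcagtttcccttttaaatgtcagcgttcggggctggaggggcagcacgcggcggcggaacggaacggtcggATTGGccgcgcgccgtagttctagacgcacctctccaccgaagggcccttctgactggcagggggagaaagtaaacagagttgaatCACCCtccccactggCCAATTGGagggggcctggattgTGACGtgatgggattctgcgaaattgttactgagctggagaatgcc
The Klf4 stretch holds GGGCGG at 217, 212, 189 and 101 bases before the start, the matches at 217 and 212 overlapping, with TGACG at 232 and CACGTG at 182. The Klf9 stretch holds no GGGCGG. It holds CCAAT at 170, 69 and 66, the last pair overlapping on opposite strands, with CACCC at 84 and TGACG at 46. The CArG box, which serum response factor reads, and TGATGCAA, a site of C/EBP and ATF dimers, were searched as well and were found in neither.

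Of the 9 listed KLF genes tested, 6 were higher in PA-treated PTECs, none was lower and 3 did not pass the test. The 6 were Klf4, Klf9, Klf11, Klf6, Klf10 and Klf5. None was lower at an unadjusted p under 0.05 either, nor with limma voom on reads recovered from the RPKM values. Over all genes tested, 11.2% were called higher and 9.52% lower, 20.7% in all. The median log2 fold change of the 9 KLF genes was 0.34, against −0.04 over all genes tested. These 9 were chosen with earlier results of these data known, which limits any comparison with all genes. Of 2 further KLF genes tested, Klf7 was called lower and Klf16 did not pass. With an absolute log2 fold change over 0.4 required as well, the threshold of the study's methods, 4 of the 9 were called (Klf4, Klf9, Klf11 and Klf6), all higher. Both thresholds were passed by 6.29% of all genes tested, 4.22% higher and 2.06% lower. In each of the 6 genes called, all PA libraries lay above all BSA libraries, a separation in that direction seen in 18.2% of all genes tested. In the other 3, the groups overlapped. These are bulk libraries, in which a change in the share of cells with a transcript and a change in the RNA per cell cannot be told apart.

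**Figure D1:**
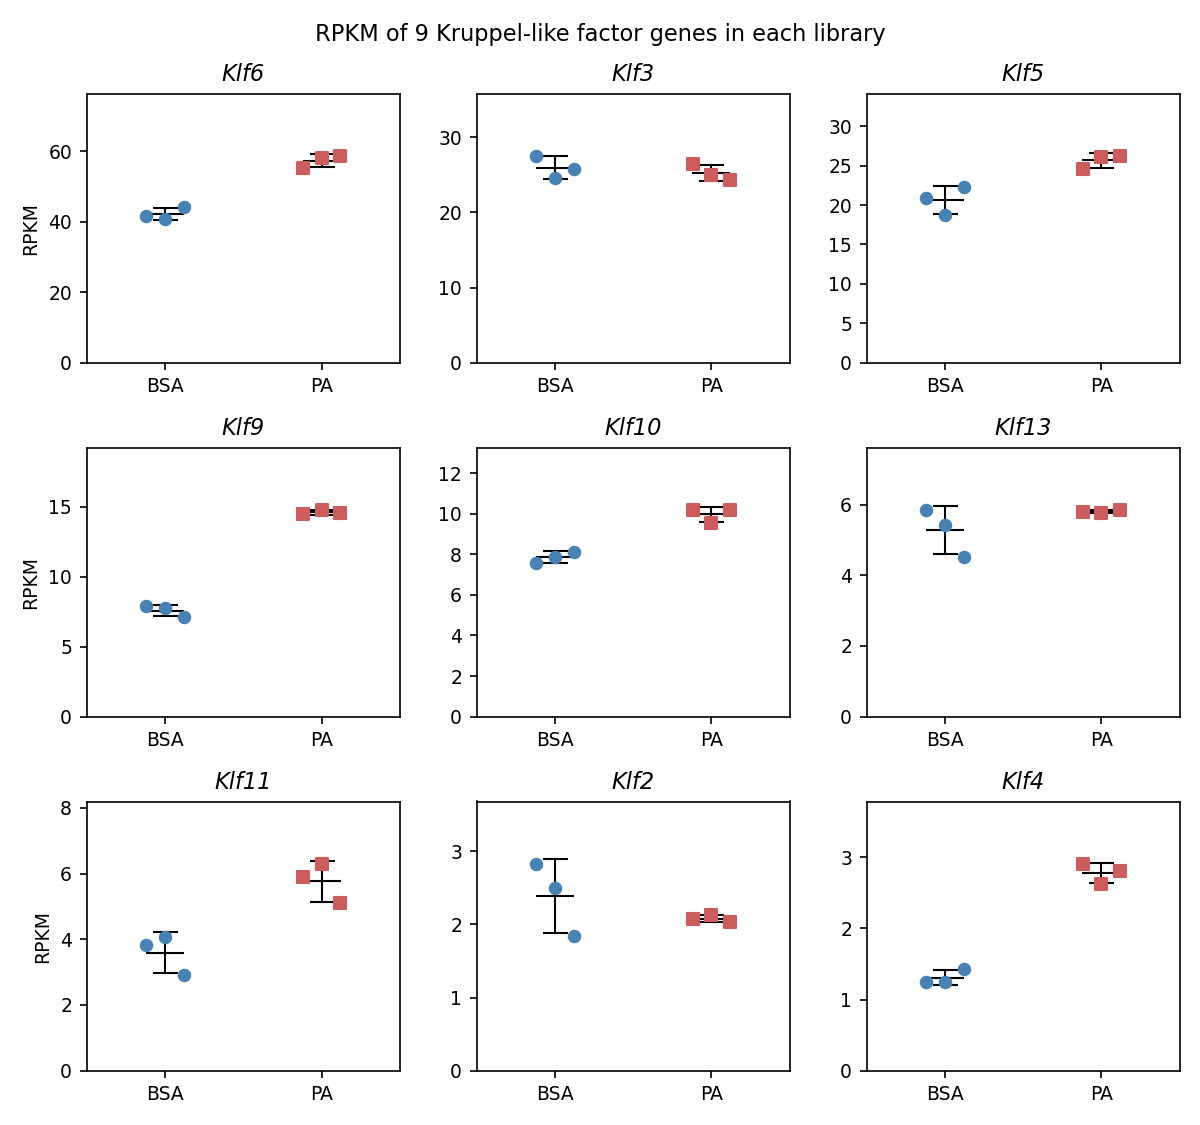
RPKM of 9 KLF genes in each library, 1 panel per gene with the vertical axis from 0, in BSA-treated (circles) and PA-treated (squares) PTECs, with the mean and SD of 3 libraries. In Klf4, Klf5, Klf6, Klf9, Klf10 and Klf11 every square lies above every circle, and in Klf2, Klf3 and Klf13 the groups overlap.

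**Figure D2:**
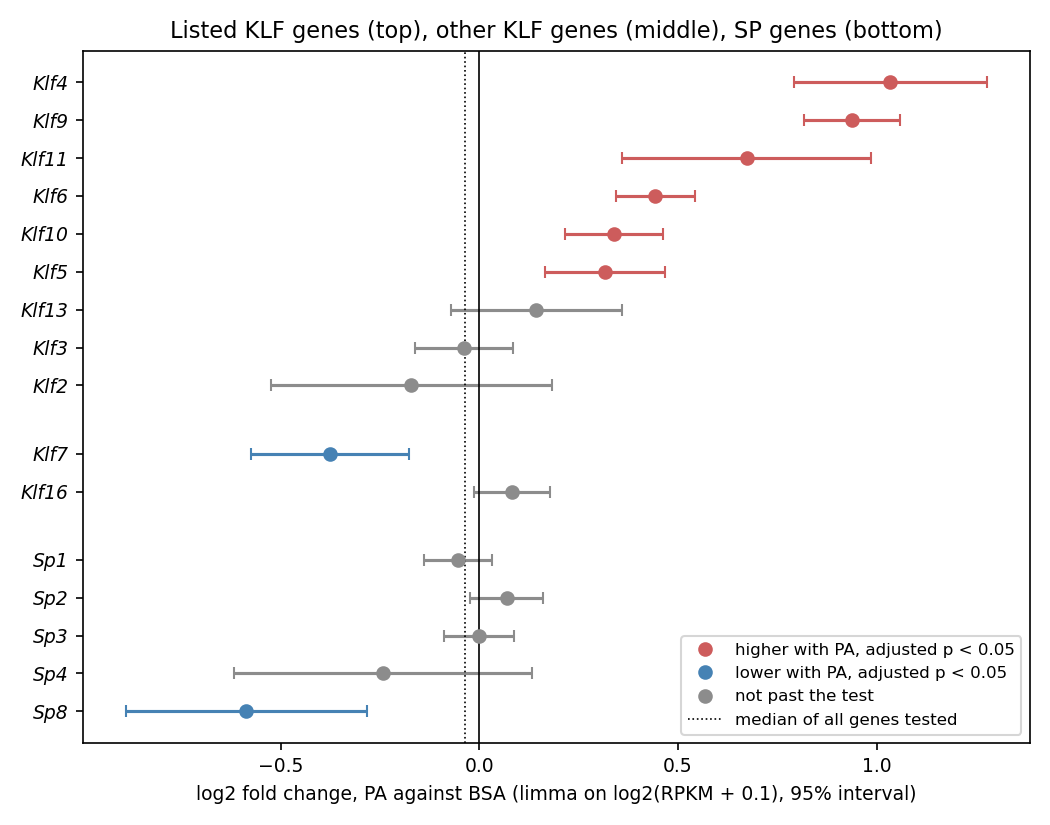
Log2 fold change of PA against BSA with its 95% interval from limma on log2(RPKM + 0.1), for the 9 KLF genes, 2 further KLF genes and 5 SP genes tested, with the median of all genes tested as a dotted line. The 6 genes called higher run from 0.32 (Klf5) to 1.03 (Klf4), and Klf7 and Sp8 are the genes called lower.

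Klf2, Klf4, Klf5 and Klf6 belong, with Klf1 and Klf7, to the subfamily with an activating N-terminal domain, of which Klf7 was called lower (its values are given with the further KLF genes). Klf4 is known as a reprogramming factor and, in epithelia, for growth arrest and barrier formation. Klf4 measured 1.25, 1.25 and 1.43 RPKM in BSA replicates 1, 2 and 3, and 2.91, 2.63 and 2.80 RPKM in PA replicates 1, 2 and 3. The lowest PA library was thus well above the highest BSA library. The fold change was 2.05 (95% interval 1.73 to 2.42, log2 fold change 1.03, standard error 0.10, adjusted p = 4.9e-04 from limma), higher than that of 99.2% of genes tested. Klf4 was at the same time the lowest of the 9 tested KLF genes in BSA-treated PTECs. Its values rest on 76 to 179 reads per library, taken as the smallest read numbers that the RPKM steps allow. The gene lies at chr4:55527143-55532466 on the minus strand (GRCm38, GENCODE vM21).

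Klf6 is an early injury response gene, and in the mouse proximal tubule its protein is known as a repressor of branched-chain amino acid catabolism. It was the most abundant KLF transcript, at 41.6, 40.7 and 44.2 RPKM in the BSA libraries and 55.2, 58.0 and 58.7 RPKM in the PA libraries. The gap between the groups, from 44.2 to 55.2 RPKM, exceeded the range within either of them. PA-treated PTECs had a 1.36-fold higher level (95% interval 1.27 to 1.46, log2 fold change 0.44, standard error 0.04, adjusted p = 4.0e-04 from limma). The gene lies at chr13:5861482-5870394 on the plus strand, and its 3295 to 4813 reads per library were the deepest coverage of the family.

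Klf5, which promotes proliferation in intestinal crypts and other epithelia, measured 20.9, 18.7 and 22.3 RPKM in the BSA libraries and 24.6, 26.1 and 26.3 RPKM in the PA libraries. The groups were separate, with a distance between them smaller than the range of the BSA libraries. This was a 1.24-fold difference (95% interval 1.12 to 1.38, log2 fold change 0.32, standard error 0.06, adjusted p = 0.0135 from limma), on 679 to 881 reads per library. The call was lost without PA replicate 2 (adjusted p = 0.0586 from limma) and without PA replicate 3 (adjusted p = 0.057 from limma), with a log2 fold change of 0.30 in both cases. The gene lies at chr14:99298691-99315036 on the plus strand.

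Klf2, a gene of quiescent T cells and of endothelium under laminar flow, did not pass the test. It measured 2.83, 2.50 and 1.84 RPKM in the BSA libraries and 2.07, 2.13 and 2.04 RPKM in the PA libraries. The PA libraries lay close together, inside the range of the BSA libraries. Its fold change of 0.888 (95% interval 0.695 to 1.13, adjusted p = 0.46 from limma) rests on 59 to 103 reads per library. Without BSA replicate 3, the lowest BSA library, the log2 fold change went from −0.17 to −0.34 (adjusted p = 0.0522 from limma), and without BSA replicate 1 to −0.04 (adjusted p = 0.872 from limma). The gene lies at chr8:72319033-72321656 on the plus strand.

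Klf9, Klf10, Klf11 and Klf13 belong, with Klf14 and Klf16, to the subfamily that binds the corepressor Sin3. Klf9 is known as a target of glucocorticoid and thyroid hormone receptors. It measured 7.87, 7.74 and 7.11 RPKM in the BSA libraries and 14.4, 14.8 and 14.6 RPKM in the PA libraries. Every PA library was higher by over 6 RPKM, whereas the PA libraries differed from each other by an SD of 0.175 RPKM. The fold change was 1.92 (95% interval 1.76 to 2.08, log2 fold change 0.94, standard error 0.05, adjusted p = 2.3e-05 from limma), higher than that of 99.0% of genes tested. Klf9 had the lowest adjusted p of the family, and it remained called in all 17 alternative settings, with log2 fold changes from 0.86 to 0.97. It had 410 to 951 reads per library and lies at chr19:23141226-23168134 on the plus strand.

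Klf11 and Klf10 are both known as early genes induced by TGF-β, and Klf11 has been linked to insulin expression. Klf11 measured 3.83, 4.06 and 2.90 RPKM in the BSA libraries and 5.88, 6.30 and 5.09 RPKM in the PA libraries. The groups were separate although each of them spanned more than 1 RPKM. The fold change was 1.60 (95% interval 1.28 to 1.98, log2 fold change 0.67, standard error 0.14, adjusted p = 0.0123 from limma), on 204 to 473 reads per library. Without PA replicate 2 the log2 fold change was 0.61 and the call was lost (adjusted p = 0.0551 from limma). Klf11 lies at chr12:24651274-24662789 on the plus strand.

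Klf10 measured 7.55, 7.88 and 8.12 RPKM in the BSA libraries and 10.2, 9.53 and 10.2 RPKM in the PA libraries. All PA libraries were above all BSA libraries, by more than the range within either group. The fold change was 1.27 (95% interval 1.16 to 1.38, log2 fold change 0.34, standard error 0.05, adjusted p = 0.00414 from limma), which stays below the size threshold of 0.4. Klf10 had 548 to 786 reads per library and lies at chr15:38291463-38300706 on the minus strand.

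Klf13, an activator of the chemokine gene Ccl5 in T cells, did not pass the test. It measured 5.86, 5.42 and 4.53 RPKM in the BSA libraries and 5.79, 5.75 and 5.85 RPKM in the PA libraries. The highest BSA library was level with the PA libraries, and BSA replicate 3 was the lowest of the 6. Its fold change of 1.10 (95% interval 0.951 to 1.28, adjusted p = 0.307 from limma) rests on 512 to 750 reads per library. Klf13 lies at chr7:63886351-63938915 on the minus strand and overlaps other annotated genes, whose reads may not be fully separated from its own.

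Klf3, a repressor that acts through the corepressor CtBP and is known from adipocyte and red cell development, was the second most abundant family member in BSA-treated PTECs. It measured 27.6, 24.5 and 25.7 RPKM in the BSA libraries and 26.4, 25.0 and 24.4 RPKM in the PA libraries, and the groups overlapped nearly fully. The fold change was 0.974 (95% interval 0.894 to 1.06, adjusted p = 0.641 from limma). With 1032 to 1277 reads per library, the interval excluded a rise of the size of that in Klf6, Klf10 or Klf5. Klf3 was called in none of the 17 alternative settings. It lies at chr5:64803388-64832901 on the plus strand and overlaps other annotated genes, with the same limit as for Klf13.

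Klf15, a glucocorticoid-induced gene known from podocytes and from amino acid metabolism in liver and muscle, was at 0 in all 6 libraries. On its GENCODE transcript of 2482 bases, a floor of 3 reads corresponds to 0.0560 to 0.0684 RPKM, depending on the library, and covers counting error only. Expression below that level was not detectable at this depth. Of the 24421 genes in the table, 5294 were at 0 in all libraries. None of 8 genes of general use, such as Actb and Gapdh, was at 0 in any library. The lowest of these 8, Tbp, was at 26.9 to 28.9 RPKM, so they do not test detection near the floor. Klf15 lies at chr6:90462576-90475238 on the plus strand.

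The order of the levels, compared per length in RPKM, differed between the groups in several places. In BSA-treated PTECs it was Klf6, Klf3, Klf5, Klf10, Klf9, Klf13, Klf11, Klf2 and Klf4, and only the neighbours Klf10 (7.85 ± 0.287) and Klf9 (7.57 ± 0.408 RPKM, SD, n = 3) had overlapping libraries. In PA-treated PTECs it was Klf6, Klf5, Klf3, Klf9, Klf10, Klf13, Klf11, Klf4 and Klf2, and the libraries overlapped between Klf5 (25.7 ± 0.916) and Klf3 (25.3 ± 1.05 RPKM), and between Klf13 (5.80 ± 0.0458) and Klf11 (5.76 ± 0.617 RPKM). Klf9 thus stood beside Klf10 with BSA and above it with PA, and Klf4 stood below Klf2 with BSA and above it with PA. Summed over the 10 genes, the level was 112.8 to 119.2 RPKM in the BSA libraries and 147.5 to 150.2 RPKM in the PA libraries. Klf6, Klf3 and Klf5 together made up 74.4% to 78.1% of this sum with BSA and 72.0% to 73.0% with PA, and the share of Klf9 was 6.02% to 6.86% with BSA and 9.72% to 9.84% with PA. The PA groups of these sums and shares did not overlap with the BSA groups, and no test was made of them.

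Ratios within a library do not depend on its scaling, and 4 pairs of related KLF genes, chosen after their values were seen, are given as a description. The ratio of Klf4 to Klf2 was 0.440, 0.499 and 0.779 in the BSA libraries and 1.41, 1.24 and 1.38 in the PA libraries, so that its 1 to 1 point lay between the groups. The ratio of Klf9 to Klf13 was 1.34, 1.43 and 1.57 with BSA and 2.49, 2.57 and 2.49 with PA. The ratio of Klf6 to Klf5, the pair of abundant activators, moved least: 1.99, 2.17 and 1.99 with BSA and 2.24, 2.22 and 2.23 with PA. For Klf11 and Klf10, the ratio was 0.507, 0.515 and 0.357 with BSA and 0.577, 0.662 and 0.501 with PA, and these groups overlapped.

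**Figure D3:**
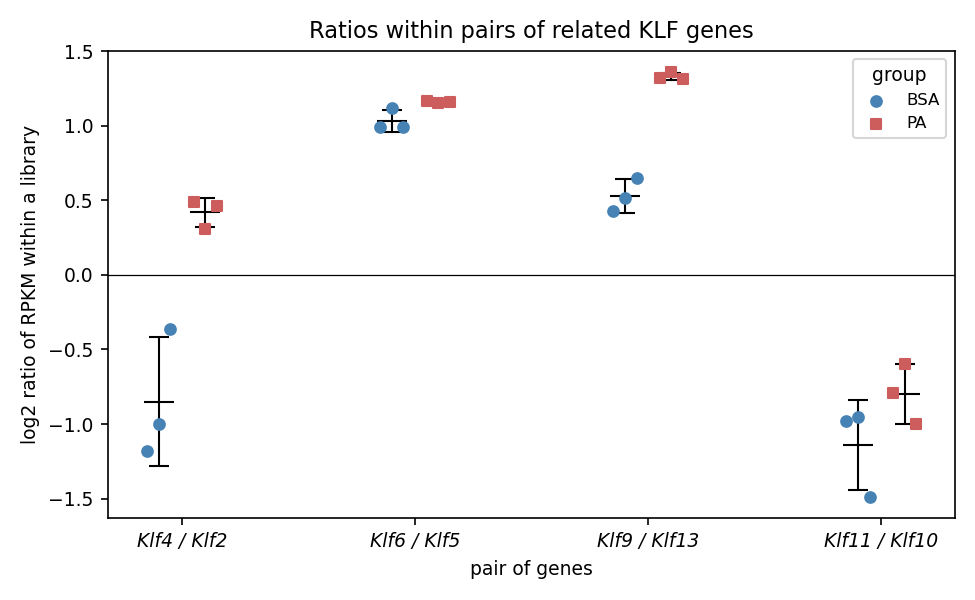
Log2 ratio of RPKM between 2 KLF genes of the same library for 4 pairs, in BSA-treated (circles) and PA-treated (squares) PTECs, with the mean and SD of 3 libraries. The ratio of Klf4 to Klf2 is below 0 in all BSA libraries and above 0 in all PA libraries, and only Klf11 to Klf10 overlaps between the groups.

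In 5 of the 9 genes (Klf2, Klf3, Klf5, Klf9 and Klf13) the SD of RPKM was larger among the BSA libraries than among the PA libraries. BSA replicate 3 was the lowest BSA library in Klf2, Klf9, Klf11 and Klf13 and the highest in Klf4, Klf5, Klf6 and Klf10. Across genes, the deviation of this library from its group mean correlated with the GC content of the gene at r = −0.20, compared with 0.15 and 0.07 in BSA replicates 1 and 2 and with −0.02 to 0.04 in the PA libraries. These are descriptions across genes, which are not independent replicates. With the trend on GC content removed within each library, the same number of 6 KLF genes was called. Leaving out BSA replicate 3 also left 6 called. Without PA replicate 2, 4 of the 9 were called, and without PA replicate 3, 5 of the 9. Under the 17 alternative settings, 150 of the 153 log2 fold changes of the 9 genes kept their call and 3 lost it, all 3 in Klf5 and Klf11 as given above.

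**Figure D4:**
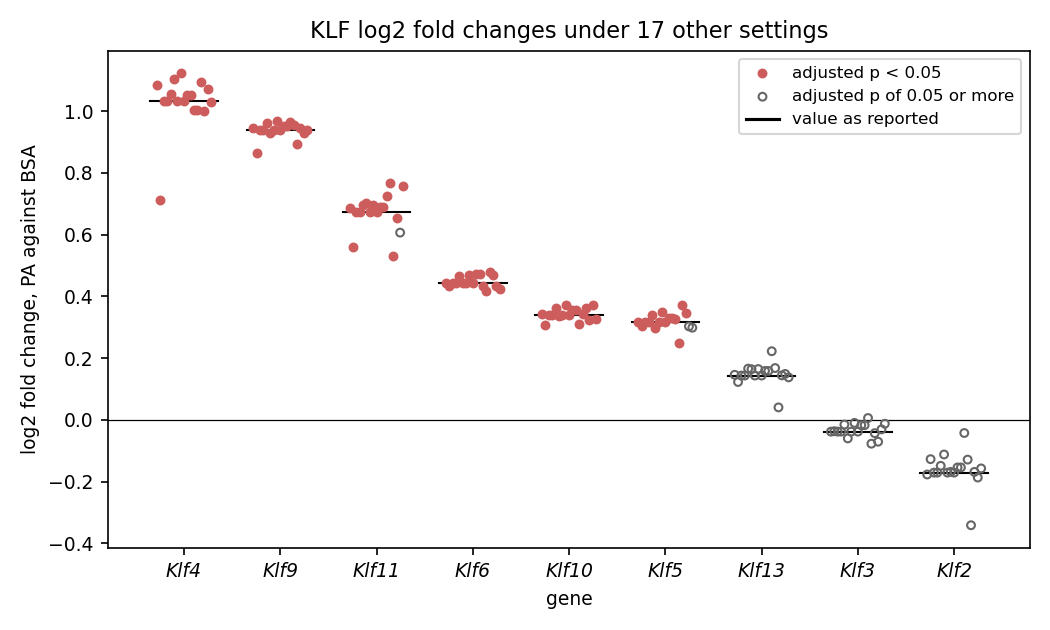
Log2 fold change of PA against BSA for the 9 KLF genes under 17 other settings, each point 1 setting, filled where the adjusted p was under 0.05, with a line at the value as reported. Klf4, Klf9, Klf6 and Klf10 are filled at every setting, and 3 points of Klf5 and Klf11 are open.

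Among the 7 further KLF genes in the table, 2 had enough signal to be tested, and 1 of them was lower. Klf7, which is known from neuron development and from inhibition of adipocyte differentiation, measured 6.54, 5.93 and 7.07 RPKM in the BSA libraries and 4.56, 5.12 and 5.31 RPKM in the PA libraries. All PA libraries lay below all BSA libraries, a separation in that direction seen in 22.3% of all genes tested. The log2 fold change was −0.38 (standard error 0.09, adjusted p = 0.0203 from limma), and the call was lost without BSA replicate 1 (0.0543), PA replicate 1 (0.0561) or PA replicate 2 (0.0604, adjusted p from limma in each case). Klf7 overlaps other annotated genes. Klf16 went from 22.0 ± 0.577 to 23.4 ± 0.788 RPKM (SD, n = 3) and did not pass (adjusted p = 0.194 from limma). The means of Klf1, Klf8, Klf12, Klf14 and Klf17 did not exceed 0.380 RPKM in either group.

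The SP genes encode the closest relatives of the KLFs, with the same kind of DNA-binding domain. Of 9 in the table, 5 were tested, none was higher (also at an unadjusted p under 0.05 and with limma voom) and 1 was lower. Sp8, which is known from limb development, went from 1.70 ± 0.0726 to 1.11 ± 0.135 RPKM (log2 fold change −0.59, standard error 0.13, adjusted p = 0.0184 from limma). Its call was lost without BSA replicate 1, BSA replicate 2, PA replicate 2 or PA replicate 3, with adjusted p from limma of 0.0602, 0.0621, 0.0706 and 0.0631. Sp1, Sp2, Sp3 and Sp4 did not pass. Among all genes tested, 11.2% were called higher and 9.52% lower.

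Of 13 genes for cofactors of KLF proteins, 1 was higher and 1 lower, a share near the 20.7% called over all genes tested. By direction, 11.2% of all genes tested were called higher and 9.52% lower. At an unadjusted p under 0.05 from limma, 2 of the 13 were higher and 4 lower. The median log2 fold change of the cofactor genes was −0.07. Ep300, a histone acetyltransferase that binds activating KLFs, was 1.09-fold higher (adjusted p = 0.0277 from limma), and Hdac1, a histone deacetylase of the Sin3 complex, had a log2 fold change of −0.12 (adjusted p = 0.0189 from limma). Both calls depended on single libraries: no cofactor was higher when BSA replicate 1 or 2 or any one of the PA replicates was left out. None was lower without BSA replicate 2, PA replicate 2 or PA replicate 3, and 5 were lower without BSA replicate 3. Of 6 ubiquitin ligase genes whose products act on KLF proteins or on their upstream regulators, 1 was higher and none lower (1 lower at an unadjusted p under 0.05, 0 with limma voom). The gene called was Smurf1, which acts on SMAD proteins, at 28.0 ± 0.890 in BSA-treated and 34.3 ± 0.355 RPKM in PA-treated PTECs (1.22-fold, adjusted p = 0.00144 from limma).

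Among upstream signals, the MEK5, ERK5 and MEF2 pathway induces Klf2 and Klf4 in endothelium. Of its 6 genes tested, 3 were higher and none lower (also none at an unadjusted p under 0.05 or with limma voom). The median log2 fold change was 0.16. The shares over all genes tested were 11.2% higher and 9.52% lower. Without BSA replicate 2 or without PA replicate 3, 2 genes of the pathway were higher. The transcription factor gene Mef2d went from 16.0 ± 0.421 to 22.3 ± 0.891 RPKM (1.39-fold, adjusted p = 3.4e-04 from limma). Map3k2, a kinase upstream of MEK5, was 1.22-fold and Mef2a 1.20-fold higher (adjusted p = 0.00807 and 0.0138 from limma). The gene of ERK5 itself, Mapk7, measured 14.7 ± 0.584 and 15.0 ± 0.271 RPKM and did not pass. It and Map2k5, the gene of MEK5, at 7.37 and 7.41 RPKM, were named after their values were seen.

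Genes of the glucocorticoid response were higher in 5 of 8 tested and lower in none. The list holds known targets, as Klf9 and Klf15 are, and also the receptor gene Nr3c1 itself. At an unadjusted p under 0.05, 1 was lower, and with limma voom 1 was lower. The median log2 fold change was 0.31. For comparison, 11.2% of all genes tested were called higher and 9.52% lower. Sgk1, a kinase that acts on sodium transport, went from 1.70 ± 0.174 to 3.38 ± 0.313 RPKM (1.93-fold, adjusted p = 0.00108 from limma). Dusp1, a MAP kinase phosphatase, was 1.46-fold higher, the clock gene Per1 1.33-fold and Tsc22d3, which encodes the protein GILZ, 1.27-fold (adjusted p = 1.0e-03, 0.0241 and 0.0245 from limma). The remaining gene called was Nr3c1, the glucocorticoid receptor gene, at 12.8 ± 0.228 and 15.6 ± 0.513 RPKM, named after its values were seen. Fkbp5, another widely used glucocorticoid target and likewise named after its values were seen, measured 24.0 ± 1.23 and 21.5 ± 0.647 RPKM (adjusted p = 0.0567 from limma). The count of higher genes was 3 without BSA replicate 2 or without any one of the PA replicates and also 3 without a low-value filter, and without BSA replicate 3 it was 6 with 2 lower.

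Immediate early genes, the class to which several KLFs belong, were higher in 8 of 13 tested and lower in 1. Their median log2 fold change was 0.29. The corresponding shares of all genes tested were 11.2% and 9.52%. The AP-1 gene Fosb went from 0.593 ± 0.103 to 1.31 ± 0.110 RPKM (2.05-fold, adjusted p = 0.00618 from limma). Atf3, a stress-induced member of the ATF family, went from 17.1 ± 0.976 to 33.4 ± 0.433 RPKM (1.95-fold, adjusted p = 1.6e-05 from limma). Myc was 1.62-fold and Ier3 1.42-fold higher (adjusted p = 2.8e-05 and 7.1e-04 from limma). The gene called lower was Srf, which encodes serum response factor, at 20.4 ± 1.00 and 15.4 ± 0.786 RPKM (log2 fold change −0.40, adjusted p = 0.0022 from limma), named after its values were seen. Fos, Junb, Jund and Egr1, likewise named after their values were seen, did not pass. Egr1 went from 8.45 ± 1.52 to 6.44 ± 0.237 RPKM (log2 fold change −0.37, adjusted p = 0.0568 from limma). At an unadjusted p under 0.05, 9 genes of the class were higher and 2 lower. Without BSA replicate 3, 2 genes of the class were lower.

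The TGF-β and SMAD genes, upstream of Klf10 and Klf11, were higher in 1 of 15 tested and lower in 3. Their median log2 fold change was −0.07, compared with −0.04 over all genes tested. Of all genes tested, 11.2% were called higher and 9.52% lower. The ligand gene Tgfb1 went from 9.95 ± 1.33 to 13.6 ± 0.457 RPKM (1.37-fold, adjusted p = 0.0121 from limma), whereas the ligand gene Tgfb2 went from 3.92 ± 0.268 to 3.12 ± 0.184 RPKM (log2 fold change −0.32, adjusted p = 0.0315 from limma). The receptor gene Tgfbr2 had a log2 fold change of −0.16 (adjusted p = 0.0207 from limma). The number lower was 1 without PA replicate 2 or PA replicate 3, and the number higher was 0 without PA replicate 2 and 2 without BSA replicate 3.

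Among the 14 genes tested that have been linked to KLFs as targets, 4 were higher and 3 lower. The median log2 fold change was 0.17. Over all genes, 11.2% were called higher and 9.52% lower. Vegfa, the endothelial growth factor gene, went from 25.7 ± 1.26 to 41.1 ± 0.877 RPKM (1.60-fold, adjusted p = 5.1e-05 from limma). Thbd, which encodes thrombomodulin, was 1.45-fold and Plau, which encodes urokinase, 1.35-fold higher (adjusted p = 0.0163 and 0.00657 from limma), and Tgfb1, given above, belongs to this list too. The genes called lower, named after their values were seen, were the cyclin genes Ccne1 and Ccnb1 and the Notch target Hes1, with log2 fold changes of −0.42, −0.12 and −0.35 (adjusted p = 7.2e-04, 0.0216 and 0.0202 from limma). Without PA replicate 2, 2 of the 14 were higher, and without BSA replicate 1, BSA replicate 2 or PA replicate 2, 1 was lower. With limma voom on recovered reads, 7 were higher.

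Of 23 genes of branched-chain amino acid catabolism, which Klf6 and Klf15 are known to regulate, 1 was higher and 4 were lower. This is a share near the 20.7% called over all genes tested. The median log2 fold change was −0.11, compared with −0.04 over all genes tested. Dbt, the core subunit of the branched-chain ketoacid dehydrogenase, went from 6.81 ± 0.264 to 4.74 ± 0.577 RPKM (log2 fold change −0.52, adjusted p = 0.00733 from limma). Ivd and Mccc2, enzymes of leucine breakdown, had log2 fold changes of −0.42 and −0.34 (adjusted p = 0.00469 and 0.00528 from limma). The fourth, Mut, was named after its values were seen, with −0.19 (adjusted p = 0.0475 from limma). Bcat1, the cytosolic aminotransferase of the first step, went from 24.2 ± 0.458 to 29.9 ± 0.406 RPKM (1.24-fold, adjusted p = 8.5e-04 from limma).

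Markers of the cells themselves were among the genes called, as were 20.7% of all genes tested (11.2% higher and 9.52% lower). Of the 8 tubular epithelial genes tested, 3 were lower and none higher (also none at an unadjusted p under 0.05 or with limma voom): among them were the keratin genes Krt18 and Krt8, with log2 fold changes of −0.32 and −0.26 (adjusted p = 0.00103 and 0.00276 from limma), and 5 were lower without BSA replicate 3. Lrp2, Cubn, Aqp1, Pax8 and Cdh16 did not pass, and 9 of the 17 genes listed were below the minimum for testing. The summed level of the 17 genes was 915 to 934 RPKM in the BSA libraries and 766 to 784 RPKM in the PA libraries. Most of this difference lay in the keratin genes, with means of 489 and 407 RPKM for Krt8 and 213 and 170.3 RPKM for Krt18 in BSA-treated and PA-treated PTECs. Of the endothelial markers 1 of 9 had enough signal to be tested, of the immune markers 3 of 10 and of the fibroblast markers 2 of 10. None of these passed the test in limma, and the others were below the minimum for testing. At an unadjusted p under 0.05, 2 fibroblast genes (Col1a2 and Pdgfrb) were lower, and limma voom called 1 fibroblast gene lower and no endothelial or immune gene. The summed levels with BSA and PA were 4.26 to 4.58 and 4.66 to 5.36 RPKM for endothelium, 11.4 to 14.9 and 12.3 to 15.2 RPKM for immune cells, and 2.64 to 2.89 and 1.55 to 2.24 RPKM for fibroblasts. The part of these shifts in the KLF results was not tested.

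**Figure D5:**
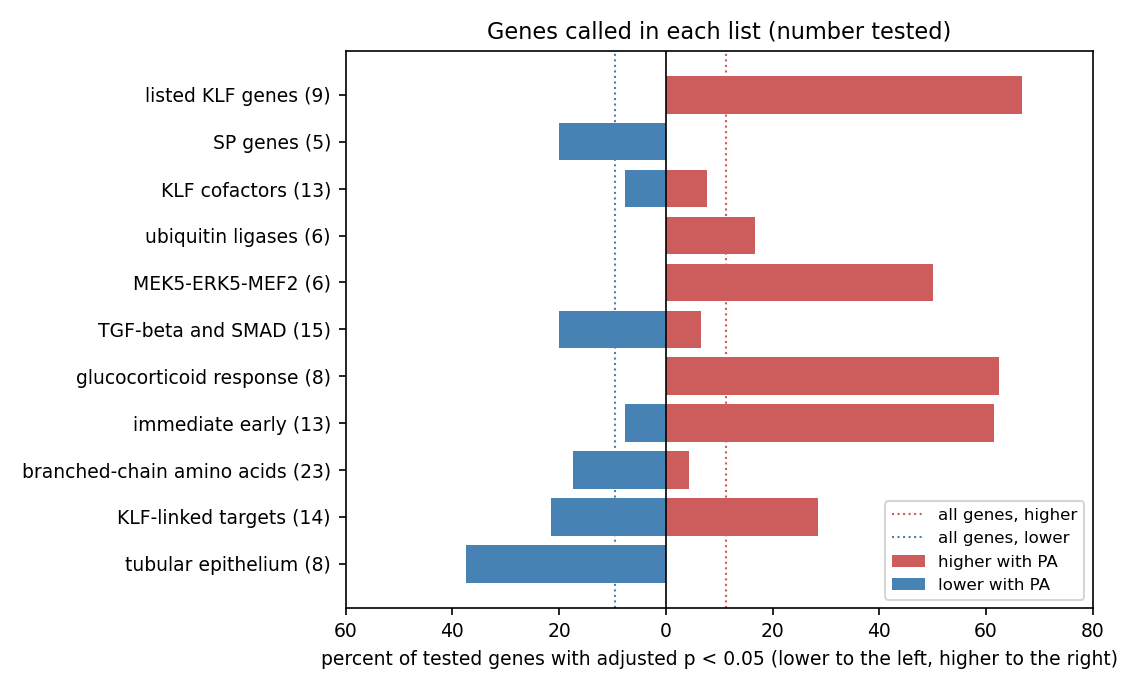
Percent of the tested genes of each list that were called higher (to the right) or lower (to the left) with PA at a limma adjusted p under 0.05, with the number tested in parentheses and dotted lines at the percentages of all genes tested, 11.2% and 9.52%. The listed KLF genes (6 of 9), glucocorticoid response genes (5 of 8) and immediate early genes (8 of 13) reach past 60 on the higher side.

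By Pearson correlation over the 6 libraries on the log2 scale, the tested genes most like Klf4 were Ptchd1 (r = 0.999), Tmem144 and Abcc1 (both r = 0.998). Mean levels went from 1.49 to 2.59 RPKM in Ptchd1, from 3.78 to 6.33 RPKM in Tmem144 and from 41.5 to 56.5 RPKM in Abcc1, which encodes an export pump of the ABC family. In all, 218 genes had r over 0.98 with Klf4, and the points share the 6 libraries and the 2 conditions.

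For 8 of the 10 genes, all but Klf5 and Klf10, RefSeq promoter windows of 250 bases before to 50 after the start on GRCm38.p6 were examined. They held 63.0% (Klf6) to 77.7% (Klf11) G and C, compared with a median of 52.7% over 32817 promoters, and 23 (Klf6) to 47 (Klf15) CpG dinucleotides, compared with a median of 7. GGGCGG was present in 7 of the 8, all but Klf9, and in 35.6% of all promoters. CACCC was present in 5 of the 8 and in 57.5% of all, TGACG in 6 and in 20.8%, CCAAT in 5 and in 37.4%, and CACGTG in 4 and in 7.15%. TGATGCAA and the CArG box were present in none of the 8, and in 0.896% and 1.63% of all promoters. Klf3 held 5 CACCC matches and Klf15 held 3 CACGTG matches in these 300 bases. The windows with CACGTG were those of Klf4, Klf6, Klf11 and Klf15. No motif share was computed over promoters of like GC content. A match describes the letters only.

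The 3′ untranslated regions of the KLF transcripts, taken from the longest coding GENCODE transcript, were also searched for ATTTA, the core of the AU-rich elements of short-lived messages. Its density ran from 0.582 per kilobase (Klf13) to 2.68 per kilobase (Klf10), compared with a median of 1.38 over 10232 tested genes. Klf10, Klf9 (2.48), Klf5 (2.34) and Klf6 (2.25) had the highest densities of the tested KLF genes, and Klf4 (1.02) was below the median. The longer element TTATTTATT was present in Klf5 alone of the 10, and in 8.57% of the genes examined.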

How the data were processed

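RNA of PTECs was extracted with Trizol and made into stranded mRNA libraries. Per the labels, 3 BSA and 3 PA libraries were grouped by treatment, and the table's columns were matched to the labels by treatment initial and number. The authors deposited RPKM values per gene and library. The submitters' processing notes name bcl2fastq and TopHat2 2.1.1. Of the read counter, the annotation and the use of strand, the sources used here say nothing, so overlapping genes may share reads. The authors' own fold changes and p-values in the table were not used.

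Each gene's RPKM values were whole multiples of 1 read's worth within a tolerance of 1e-06 in 100.0% of genes, which gave the library sizes and read numbers. The fit was made with limma 3.58.1 (R 4.3.3, lmFit and eBayes with a variance trend, condition as the only term) on log2(RPKM + 0.1) for the 11671 genes whose mean over all libraries reached 0.5 RPKM, and p-values were Benjamini-Hochberg adjusted over them. The second threshold was an absolute log2 fold change over 0.4. The fit was tested on simulated data with noise independent between genes and without a trend on GC content. That check does not cover a trend of the kind seen in BSA replicate 3. Within each group, libraries were further apart than sampling noise allows (chi-square per degree of freedom 5.09 to 8.56 for BSA and 1.90 to 3.21 for PA pairs), so none was treated as a duplicate.

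Named are all 10 KLF genes, further KLF and SP genes past the test, up to 4 genes of each other list with the largest changes past the test (otherwise the 2 most abundant at most), and the 3 genes most correlated with Klf4. For 2 genes that this rule names, values are not reported here. The members and lists were chosen with earlier results of these data known. Alternatives were pseudocounts of 0.01 and 1, no filter, a minimum of 1, median-of-ratios scaling, quantile normalization, no variance trend, limma voom with TMM scaling, a replicate block, removal of the GC trend (alone and with the block), and each library left out. Positions are from GENCODE vM21 (GRCm38) and promoters from RefSeq (GRCm38.p6). Tables and figures were made with Python 3.11.15.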

Additional observations from a re-analysis of the deposited data

How the results depend on the processing

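Of the genes tested, 2413 were called, 1302 higher and 1111 lower, and 734 past both thresholds. With each library left out in turn, the calls ranged from 1210 (without PA replicate 2) to 3007 (without BSA replicate 3), with 819 to 1364 higher, 391 to 1643 lower and 555 to 815 past both thresholds. KLF genes called ranged from 4 to 6, those past both thresholds from 3 to 4, and genes called over all lists from 25 to 54, with 40 in the full data. Without a low-value filter, 739 genes were lower. With median-of-ratios scaling the split was 1485 higher and 806 lower. The deviations of BSA and PA libraries with the same number correlated at 0.03, −0.04 and 0.09. Those with different numbers correlated at −0.10 to 0.07. These weak values show no clear pairing by replicate number, and they cannot exclude it. With a replicate block, 2575 genes and 6 KLF genes were called. No KLF value reversed a call under any alternative. Klf4 had its lowest log2 fold change, 0.71, with a pseudocount of 1 RPKM. Counts within lists under settings that keep all libraries moved by over 1.5 times for cofactors (higher 0 to 2, lower 0 to 3), TGF-β and SMAD (higher 1 to 2, lower 2 to 5), glucocorticoid (higher 3 to 6, lower 0 to 1), immediate early (lower 1 to 2), branched-chain amino acid (higher 1 to 2), KLF-linked (higher 4 to 8, lower 1 to 3), ubiquitin ligase (lower 0 to 1) and fibroblast genes (lower 0 to 1), and the cause was not tested. Depth limits Klf15, which was at 0, and Klf2 and Klf4, with the fewest reads.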
